A study of Mus musculus with 6 samples.

Results

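Cholesterol is built from acetyl-CoA by a chain of enzymes, and 8 of them, Hmgcs1, Idi1, Fdps, Fdft1, Sqle, Lss, Cyp51 and Dhcr7, were followed in the cochlea of young and old mice. They were taken by symbol from a fixed list of sterol synthesis enzymes. The rule used no measured value, but the list was drawn up with earlier results of these data known. They are 8 of 25419 genes, of which 992 are single transcripts without an Ensembl ID. Gene levels are sums of the deposited FPKM over the transcripts of each gene. FPKM are fragments mapped to a transcript, scaled by its length and by the depth of the library. RNA-sequencing was conducted on cochlear tissue of C57BL/6 mice, a strain that loses hearing early in life, without any treatment or engineered allele. The young group (1 month of age) and the old group (12 months of age) held 3 samples each, and each sample was a mixture of tissue from 3 mice, so that the spread between samples is a spread between pools and not between single mice. The RNA came from dissected basilar membranes, which carry hair cells, supporting cells, nerve fibres with Schwann cells, and blood and immune cells in 1 mixture. Marker genes of bone were detected in all 6 samples as well. In such bulk tissue, fewer cells of a type and less RNA per cell cannot be told apart.

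The pathway runs in 3 stages. In the first, acetyl-CoA units are joined and reduced to mevalonate, which is turned into isoprenoid units that also feed protein prenylation, dolichol and ubiquinone. In the second, isoprenoid units are joined into squalene, the first molecule committed to sterols, which is oxidised and closed into the ring of lanosterol. In the third, lanosterol is trimmed to cholesterol. Transcription of the enzymes is driven by the sterol regulatory element binding proteins (SREBPs), held back in the endoplasmic reticulum by Insig proteins when sterol is plentiful. Myelin is very rich in cholesterol, Schwann cells make most of theirs on site, and the cholesterol content of the outer hair cell membrane is known to affect its stiffness.

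The enzymes did not move as a block. Fdft1, squalene synthase, was the member that passed the threshold, higher in old cochlea by 0.50 on the log2 scale, and no member fell. Fdps, Sqle and Cyp51 were higher in every old sample than in every young sample but did not pass the threshold, while Idi1, Lss, Hmgcs1 and Dhcr7 overlapped between ages. The mean of the summed FPKM was higher in old cochlea for 6 members and lower for 2, Hmgcs1 and Dhcr7. The direction of Dhcr7 depended on which transcripts were counted. Thus, 1 of 8 members passed the limma threshold of an adjusted p of 0.05 as higher in old samples, where 5.65% of the 19465 genes tested did, and 0 of 8 as lower, where 3.81% did. At an unadjusted p under 0.05, 4 of 8 members differed, against 5403 of all 19465 genes (27.8%). The old samples all exceeded the young ones in 4 of 8 members, as they did in 17.6% of all genes, and lay below them in 0 of 8, which 16.1% of all genes showed. The median log2 change of the members was 0.25, with a median over all genes of 0.01.

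**Figure D1:**
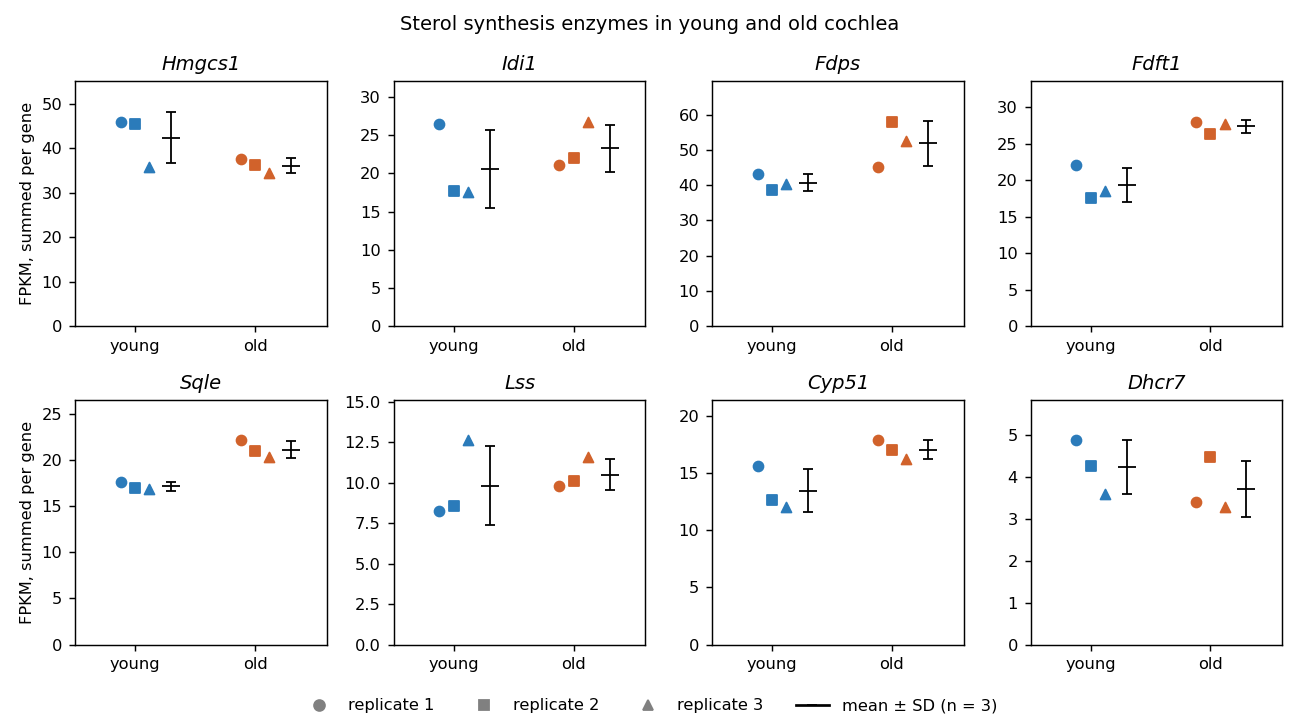
Level of the 8 enzymes (y axis, FPKM summed per gene, starting at 0) in 3 young and 3 old samples, with 1 symbol per replicate number and the mean ± SD (n = 3) at the side of each group. The old samples of Fdps, Fdft1, Sqle and Cyp51 all sit above the young ones, from 26.4 to 28.0 FPKM against 17.6 to 22.0 FPKM for Fdft1, while the groups overlap for the other 4.

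The early steps were represented by Hmgcs1 and Idi1. Hmgcs1, the cytosolic HMG-CoA synthase that joins acetyl units on the way to mevalonate, had 45.9, 45.4 and 35.8 FPKM in young replicates 1, 2 and 3 and 37.7, 36.3 and 34.3 FPKM in old replicates 1, 2 and 3. Young replicates 1 and 2 were the high samples, and young replicate 3 lay within the range of the old group. The mean was 42.4 ± 5.70 FPKM in young and 36.1 ± 1.67 FPKM in old cochlea (SD, n = 3 each), with a log2 change of -0.22 (SE 0.11, adjusted p = 0.231 by limma). Without young replicate 3 the old samples lay below the remaining young ones, with a log2 change of -0.34 and an adjusted p of 0.0448 by limma. Idi1, the isomerase that interconverts the 2 isoprenoid units, had 26.6, 17.7 and 17.5 FPKM in the young and 21.1, 22.0 and 26.8 FPKM in the old replicates. Young replicate 1 stood as high as the highest old sample. The mean was 20.6 ± 5.16 FPKM in young and 23.3 ± 3.05 FPKM in old cochlea, with a log2 change of 0.20 (SE 0.18, 95% confidence interval -0.22 to 0.61, adjusted p = 0.512 by limma), and leaving out young replicate 1 separated the groups.

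Promoter sequences of the RefSeq table (GRCm38.p6, 250 bases before to 50 bases after a start) were found for 5 of 8 members, Hmgcs1, Idi1, Lss, Cyp51 and Dhcr7. They were searched on both strands for TCACNCCA (the core of a sterol regulatory element, SRE), CCAAT (bound by NF-Y) and GGGCGG (the GC box bound by Sp1), since SREBPs are known to act together with these factors. The stretches before the start are shown for Hmgcs1, whose mean was lower in old cochlea, for Lss, whose full-length transcript was higher in every old sample, and for Cyp51, which was higher in every old sample. All matches are in capitals, and the strand is that of the gene (chr13:119690101-119690350, plus strand, for Hmgcs1, chr10:76531355-76531604, plus strand, for Lss, and chr5:4104747-4104947, minus strand, for Cyp51). The stretch of Cyp51 stops where the transcript of the expression table begins, 49 bases upstream of the RefSeq start, and so leaves out its only CCAAT, 29 bases before the RefSeq start.
Hmgcs1: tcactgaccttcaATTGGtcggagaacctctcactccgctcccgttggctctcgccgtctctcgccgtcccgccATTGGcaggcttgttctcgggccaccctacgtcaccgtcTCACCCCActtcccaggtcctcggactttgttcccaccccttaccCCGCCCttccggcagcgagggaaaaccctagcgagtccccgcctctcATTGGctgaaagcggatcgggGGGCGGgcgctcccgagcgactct
Lss: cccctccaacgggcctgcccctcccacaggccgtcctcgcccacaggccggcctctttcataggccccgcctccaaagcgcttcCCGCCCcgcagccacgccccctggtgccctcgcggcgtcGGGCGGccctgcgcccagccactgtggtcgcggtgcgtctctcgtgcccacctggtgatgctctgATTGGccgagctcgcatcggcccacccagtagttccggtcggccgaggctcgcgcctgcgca
Cyp51: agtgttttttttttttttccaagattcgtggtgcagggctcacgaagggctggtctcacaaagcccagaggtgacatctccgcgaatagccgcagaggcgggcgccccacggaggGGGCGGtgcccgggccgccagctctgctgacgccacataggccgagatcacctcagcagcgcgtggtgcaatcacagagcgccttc
The Hmgcs1 stretch held the SRE core 137 bases before the RefSeq start, with CCAAT on the minus strand on either side of it. Neither the Lss nor the Cyp51 window held the SRE core, which says only that these letters were not in the window. The core was found in 1 of 5 members, 1 of 11 other synthesis enzymes (Msmo1, 177 bases before the start), 1 of 7 SREBP control genes (Srebf2, 162 bases before the start) and 0 of 5 uptake genes with a promoter in the table, and in 4.36% of all 32851 single promoters. Counting a gene when any of its promoters matched, CCAAT and GGGCGG were each found in 5 of 5 members and in 10 of 11 other enzymes. Counted per promoter, as in the share of all promoters, CCAAT was in 5 of 7 promoters of members and 10 of 12 of other enzymes, against 37.4% of all, and GGGCGG in 6 of 7 and 10 of 12, against 35.7%. The SRE core was in 1 of 7 and 1 of 12. Dhcr7, with 3 promoters, is the member with more than 1. The 30 bases around the core are shown to compare its letters between an early enzyme, a late enzyme and the gene of SREBP2 itself, with the core in capitals.
Hmgcs1 core: acgtcaccgtcTCACCCCActtcccaggtc
Msmo1 core: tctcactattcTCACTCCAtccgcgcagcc
Srebf2 core: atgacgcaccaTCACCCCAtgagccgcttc
The core has the same letters in Hmgcs1 and Srebf2 and another base at its free position in Msmo1. The means of these 3 genes did not all differ in the same direction. Msmo1 had 40.4 ± 4.94 FPKM in young and 48.6 ± 3.30 FPKM in old cochlea, Srebf2 19.7 ± 1.22 and 24.0 ± 1.26 FPKM, and neither they nor Hmgcs1 passed the threshold.

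The enzymes that build squalene were higher in every old sample than in every young one. Fdps, farnesyl diphosphate synthase, which supplies both the sterol and the prenylation branch, had 43.3, 38.6 and 40.3 FPKM in the young and 45.2, 58.0 and 52.5 FPKM in the old replicates. Old replicate 1 lay close to young replicate 1, and the groups did not overlap. The mean was 40.7 ± 2.37 FPKM in young and 51.9 ± 6.41 FPKM in old cochlea, with a log2 change of 0.34 (SE 0.10, adjusted p = 0.0782 by limma). Fdft1, which joins 2 farnesyl diphosphates into squalene, had 22.0, 17.6 and 18.5 FPKM in the young and 28.0, 26.4 and 27.7 FPKM in the old replicates. The old samples were close together and all above young replicate 1, the highest of the young group. The mean rose from 19.4 ± 2.36 FPKM to 27.4 ± 0.887 FPKM, a log2 change of 0.50 (SE 0.10, 95% confidence interval 0.27 to 0.74, adjusted p = 0.0286 by limma). The exact two-sided permutation test gave p = 0.1 for Fdft1, Fdps, Sqle and Cyp51, the smallest value that 3 samples against 3 allow. The Fdft1 call was lost on leaving out young replicate 2 (log2 change 0.44, adjusted p = 0.0853 by limma) or young replicate 3 (0.47, adjusted p = 0.0552). It was also lost on leaving out old replicate 1 (0.49, adjusted p = 0.0825 by limma), old replicate 2 (0.53, adjusted p = 0.0906) or old replicate 3 (0.49, adjusted p = 0.0802).

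Fdft1 shares sequence with a neighbour. It lies on the minus strand of chromosome 14 (63145153 to 63177793, GRCm38), and the last 771 nt of its 3′ end, from 63145153 to 63145923, are also exon of Ctsb, the lysosomal protease cathepsin B, on the opposite strand. Ctsb is named here after its values were seen. It rose from 179 ± 2.66 FPKM in young to 280.9 ± 10.8 FPKM in old cochlea, a log2 change of 0.65 (SE 0.06, adjusted p = 0.00593 by limma). From its level and the estimated depth, 1739.7 to 3363 Ctsb fragments per sample would fall in the shared stretch, where the whole of Fdft1 had 594 to 1065 estimated fragments. The library kit was directional, but whether strand was used in computing the FPKM is not given in the sources used here, so the Fdft1 values are uncertain to that extent and the part of Ctsb in the Fdft1 result was not tested. Cyp51 shares 166 nt with Akap9 on the opposite strand, which had 26.8 ± 3.18 and 25.7 ± 2.54 FPKM (adjusted p = 0.755 by limma). Fdps shares 1124 nt with Gm43738 and Lss 381 nt with the antisense gene 4930483K19Rik, and these had at most 0.0888 and 1.07 FPKM in any sample.

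Squalene epoxidase and the enzymes after it differed among themselves. Sqle, the epoxidase and a known rate-limiting step of sterol synthesis, had 17.7, 17.0 and 16.9 FPKM in the young and 22.2, 20.98 and 20.4 FPKM in the old replicates. The groups did not overlap, and its log2 change had the smallest SE of the 8 members. The mean was 17.2 ± 0.462 FPKM in young and 21.2 ± 0.912 FPKM in old cochlea, with a log2 change of 0.30 (SE 0.08, 95% confidence interval 0.12 to 0.48, adjusted p = 0.0516 by limma), just outside the threshold. Lss, the cyclase that closes the sterol ring, had 8.26, 8.55 and 12.6 FPKM in the young and 9.80, 10.1 and 11.6 FPKM in the old replicates. Young replicate 3 was the highest of all 6 samples. The mean was 9.81 ± 2.45 FPKM in young and 10.5 ± 0.964 FPKM in old cochlea, with a log2 change of 0.12 (SE 0.18, 95% confidence interval -0.29 to 0.53, adjusted p = 0.690 by limma).

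Cyp51 and Dhcr7 act on the closed ring. Cyp51, the demethylase of lanosterol, had 15.6, 12.6 and 12.1 FPKM in the young and 17.8, 17.0 and 16.3 FPKM in the old replicates. Young replicate 1 was close to the lowest old sample, and the groups did not overlap. The mean was 13.4 ± 1.88 FPKM in young and 17.0 ± 0.798 FPKM in old cochlea, with a log2 change of 0.35 (SE 0.12, adjusted p = 0.10 by limma). Dhcr7, the reductase of the last step of one branch, had 4.86, 4.25 and 3.58 FPKM in the young and 3.39, 4.47 and 3.27 FPKM in the old replicates. Old replicate 2 lay among the young samples. The mean was 4.23 ± 0.643 FPKM in young and 3.71 ± 0.662 FPKM in old cochlea, with a log2 change of -0.19 (SE 0.19, 95% confidence interval -0.62 to 0.25, adjusted p = 0.551 by limma). It was also the member with the fewest fragments, an estimated 64.8 to 148 per sample, against up to 1858 for Hmgcs1.

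**Figure D2:**
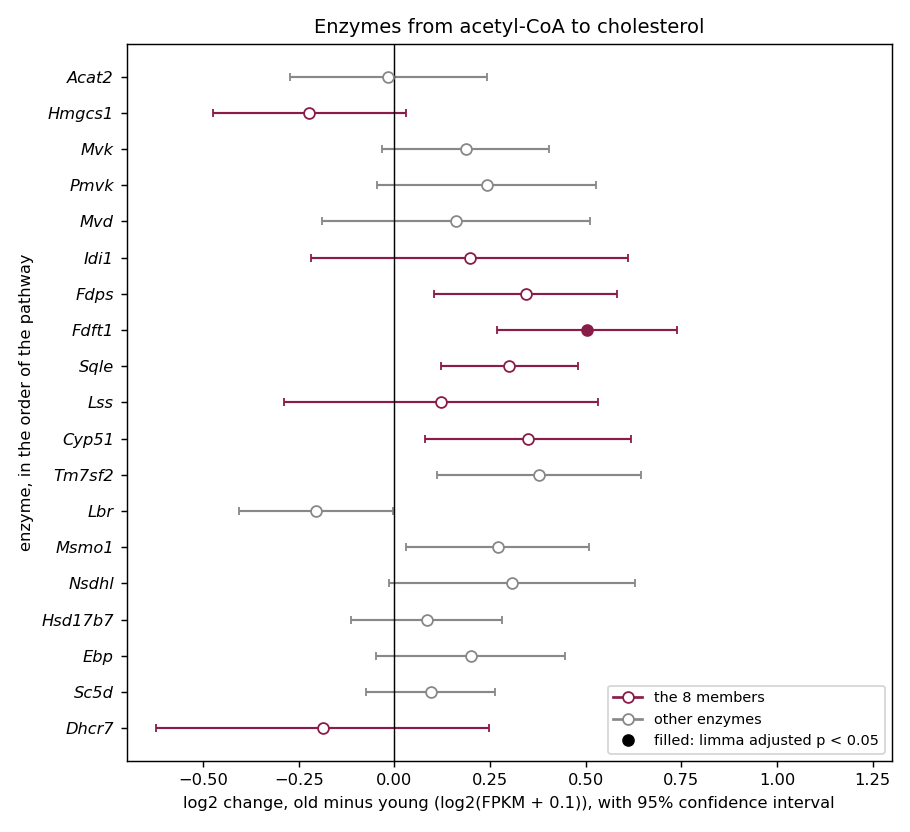
Log2 change from young to old cochlea (x axis, on log2(FPKM + 0.1)) with its 95% confidence interval for 19 enzymes in pathway order from top to bottom, the 8 members in dark red and 11 other enzymes in grey. Fdft1 at 0.50 carries the only filled symbol (adjusted p under 0.05 by limma), and the intervals of Fdps, Sqle, Cyp51, Tm7sf2 and Msmo1 also lie above 0, and that of Lbr lies below 0.

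Summed over the 8 members, the level was 184, 162 and 157 FPKM in the young and 185, 195 and 193 FPKM in the old replicates. Young replicate 1 nearly reached old replicate 1, and the means of 168 ± 14.4 FPKM and 191 ± 5.29 FPKM differed 1.14-fold. In young cochlea, the order of levels by mean FPKM, a measure per length, was Hmgcs1, Fdps, Idi1, Fdft1, Sqle, Cyp51, Lss and Dhcr7. Neighbours whose samples did not overlap were Fdps and Idi1, Sqle and Cyp51, and Lss and Dhcr7. In old cochlea the order was Fdps, Hmgcs1, Fdft1, Idi1, Sqle, Cyp51, Lss and Dhcr7, and the neighbours that overlapped were Fdft1 with Idi1 and Idi1 with Sqle. Hmgcs1 and Fdps thus overlapped in young samples and were apart in old samples.

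The levels of the other 7 members relative to Hmgcs1 were taken within each sample, a description chosen after the values were seen and given without a test. The ratio of Fdft1 to Hmgcs1 was 0.480, 0.387 and 0.517 in the young and 0.743, 0.726 and 0.808 in the old replicates. The ratio of Sqle to Hmgcs1 was 0.410 ± 0.0530 in young and 0.587 ± 0.00808 in old cochlea, and that of Cyp51 to Hmgcs1 was 0.318 ± 0.0343 and 0.472 ± 0.00273 (SD, n = 3). The ratio of Fdps to Hmgcs1 was 0.973 ± 0.141 in young and 1.44 ± 0.212 in old cochlea. In these 4 ratios every old sample lay above every young one, whereas the ratios of Idi1 (0.486 ± 0.0938 and 0.649 ± 0.116), Lss (0.240 ± 0.0975 and 0.292 ± 0.0407) and Dhcr7 (0.0998 ± 0.00616 and 0.103 ± 0.0178) overlapped. A ratio shows unequal change of its genes and not which of them changed.

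The transcripts of a gene did not all follow its sum. The table lists 24 transcripts of the members, of which 19 had a mean of at least 0.1 FPKM and were tested. None passed the limma threshold after adjustment over 38764 transcripts, of which 0.748% did, and 6 of 19, each with a higher mean in old samples, had an unadjusted p under 0.05, against 17.0% of all transcripts. In Lss, the cyclase, the full-length transcript ENSMUST00000048678 (4667 nt, 22 exons) had 8.26, 8.55 and 8.28 FPKM in the young and 9.80, 10.1 and 11.6 FPKM in the old replicates. The groups did not overlap, with a log2 change of 0.32 (SE 0.11, adjusted p = 0.203 by limma). The high Lss sum of young replicate 3 came from a transcript of 314 nt, ENSMUST00000163049, with 4.35 FPKM in that sample and listed at 0 in the other 5. The depth estimate took 290 nt off each transcript length in that sample. Little of the 314 nt is then left, so very few fragments can give such a value.

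Dhcr7 had the most transcripts, 8 listed and 6 tested. The main one, ENSMUST00000124340 (2556 nt), had 3.37, 1.25 and 2.92 FPKM in the young and 2.63, 2.39 and 2.40 FPKM in the old replicates. Its log2 change was 0.09, against -0.19 for the sum, so that the direction of Dhcr7 depended on which transcripts were counted. The low value of young replicate 2 went with 1.91 FPKM of a 361 nt transcript, ENSMUST00000125564, which was near 0 in the other samples. The depth estimate took 290 nt off each length in that sample, so few fragments can give this value. Estimated fragments of all Dhcr7 transcripts were 131, 64.8 and 84.8 in the young and 98.8, 148 and 103 in the old replicates, not scaled for depth. ENSMUST00000073878 (2815 nt) was higher in every old sample, at 0.282 ± 0.278 FPKM in young and 0.864 ± 0.115 FPKM in old cochlea. In Idi1, ENSMUST00000169314 (3027 nt) made up 68.6% of the sum, and a transcript of 581 nt, ENSMUST00000177400, 29.3%, with 11.3 FPKM in old replicate 3. In Fdps, ENSMUST00000081848 (1237 nt) made up 94.5% of the sum, with 38.9 ± 2.91 FPKM in young and 48.6 ± 6.01 FPKM in old cochlea. Hmgcs1, Fdft1 and Cyp51 had 1 transcript each, and ENSMUST00000022977 made up 99.7% of Sqle.

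**Figure D3:**
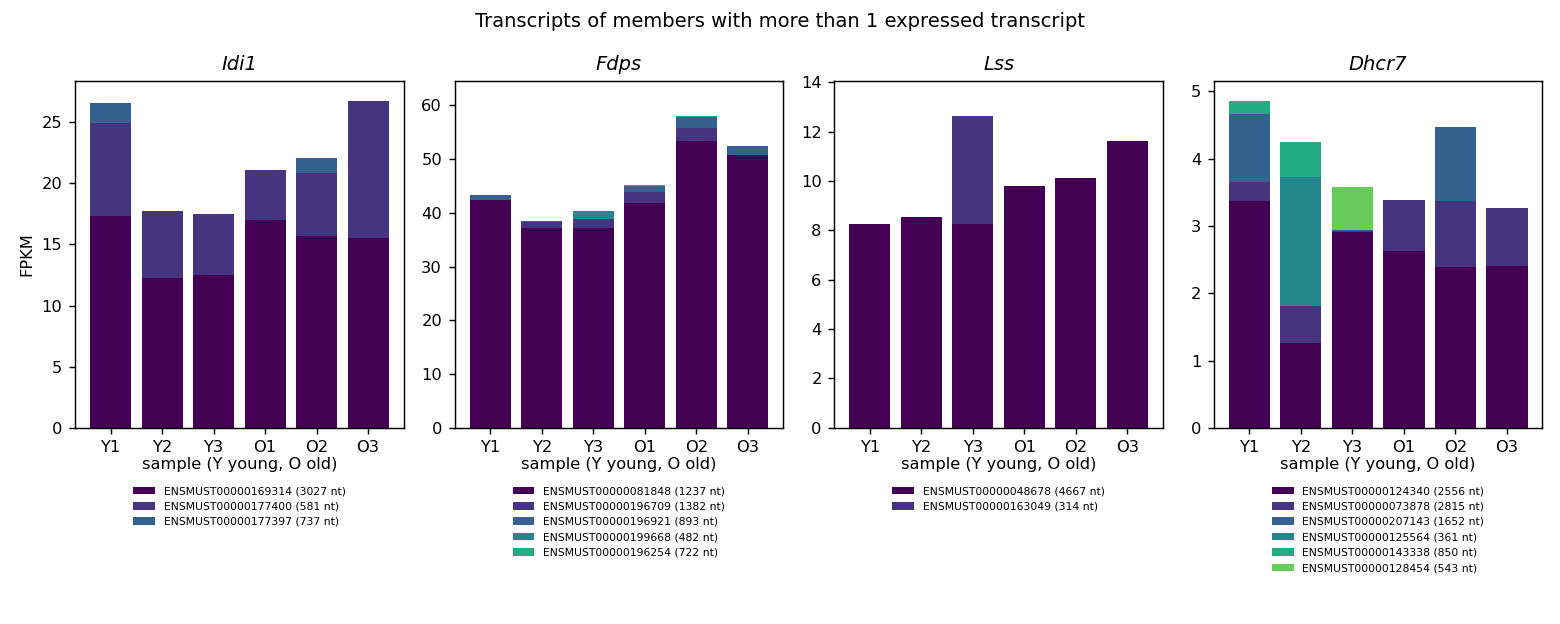
FPKM of each transcript (stacked bars, y axis from 0) of Idi1, Fdps, Lss and Dhcr7 in young (Y) and old (O) replicates. The short Lss transcript adds 4.35 FPKM in young replicate 3, and the composition of Dhcr7 changes from sample to sample.

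The synthesis enzymes also differed between the young samples in a shared way. Young replicate 1 was above the mean of its group for 7 of 8 members, by 0.13 on the log2 scale on average, and young replicates 2 and 3 were below it by 0.07 and 0.06. The 13 other synthesis enzymes were also highest in young replicate 1, with 11 of 13 above the group mean there (0.12 on average). The 18 Schwann cell and myelin markers were highest in young replicate 2, with averages of 0.11, 0.16 and -0.27 in young replicates 1, 2 and 3. Young replicate 1 was also the highest young sample for some other markers, named after their values were seen. Ibsp of bone had 22.9, 6.36 and 12.5 FPKM in the young replicates, and Top2a of proliferation 2.09, 0.292 and 0.195 FPKM. Other markers did not follow, such as Runx2 of bone (4.31, 1.49 and 5.21 FPKM). In the old group the 2 lists had different orders. The averages of the members were -0.04, 0.03 and 0.005 in old replicates 1, 2 and 3. Those of the other enzymes were -0.05, -0.003 and 0.06, with 9 of 13 above the group mean in old replicate 3.

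**Figure D4:**
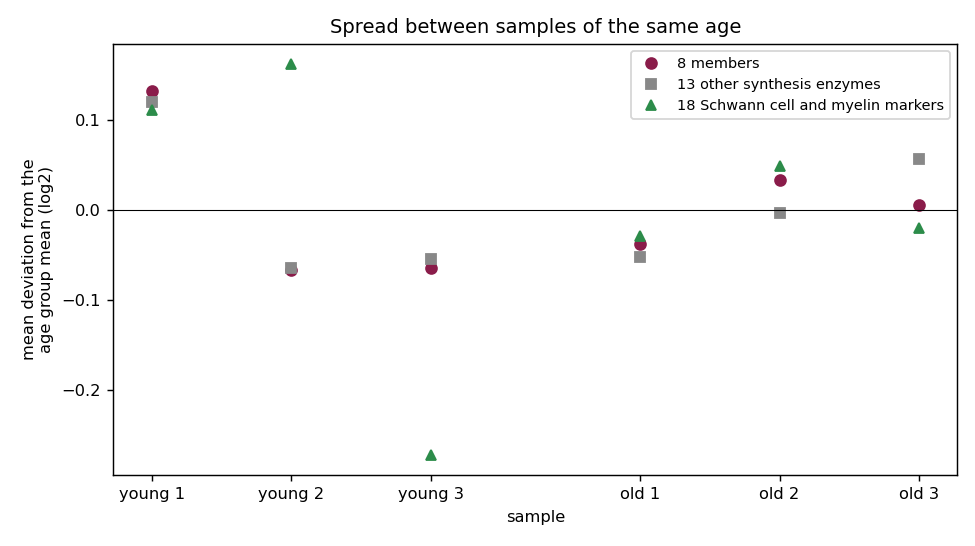
Mean deviation of 3 gene lists from their age group mean (y axis, log2) in each of the 6 samples (x axis). The 8 members and the 13 other synthesis enzymes lie together at 0.13 and 0.12 in young 1, whereas the Schwann cell and myelin markers drop to -0.27 in young 3.

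The remaining 13 enzymes of synthesis from acetyl-CoA to cholesterol had a median log2 change of 0.16, and 0 of 13 passed the threshold in either direction. Mvd, which makes the first isoprenoid unit, had 6.95 ± 0.353 FPKM in young and 7.86 ± 1.35 FPKM in old cochlea. Msmo1, the methyl oxidase that follows Cyp51, had a log2 change of 0.27 (SE 0.10, adjusted p = 0.139 by limma). Besides Msmo1, Mvk and Tm7sf2 were higher in every old sample and Lbr lower in every old sample, the last 3 being named after their values were seen.

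The genes that sense and respond to sterol were higher in part. Srebf1, the gene of SREBP1, which mainly drives fatty acid synthesis, had 78.5, 75.9 and 95.6 FPKM in the young and 179, 173 and 152 FPKM in the old replicates. It rose by 1.01 on the log2 scale (SE 0.11, adjusted p = 0.00961 by limma) and was 1 of 7 SREBP control genes and the one that passed. Srebf2, the gene of SREBP2, which mainly drives sterol synthesis, had a log2 change of 0.28 (SE 0.08, adjusted p = 0.0774 by limma) with groups that did not overlap. Insig1, the retention factor and itself an SREBP target, had 121, 90.6 and 101 FPKM in the young and 183, 142 and 133 FPKM in the old replicates. The groups did not overlap (log2 change 0.54, SE 0.15, adjusted p = 0.0608 by limma). Scap, the escort of SREBP, had 25.4 ± 2.73 and 25.2 ± 5.81 FPKM.

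Uptake of cholesterol was represented by 10 genes, of which 3 rose and 0 fell. Lrp1, a receptor of ApoE-bearing particles, rose by 0.27 (adjusted p = 0.0423 by limma), and Npc2, which hands cholesterol on in the lysosome, by 0.51 (adjusted p = 0.0183). In the list of efflux, liver X receptor and oxysterol genes, 2 of 11 rose and 0 fell. Apoe, the main lipid carrier of neural tissue, rose from 2126 ± 73.7 to 3124 ± 29.7 FPKM (log2 change 0.56, adjusted p = 0.0115 by limma), and Cyp27a1, an oxysterol-forming hydroxylase, from 8.58 ± 0.376 to 11.8 ± 0.697 FPKM (0.46, adjusted p = 0.0326). The exporter Abca1 had 24.1 ± 2.65 and 27.2 ± 2.22 FPKM.

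Among 10 genes of fatty acid synthesis, 3 rose and 0 fell. They were the desaturases Scd1 (155 ± 18.5 to 260.3 ± 16.1 FPKM, log2 change 0.75, adjusted p = 0.0124 by limma), Fads1 (0.47, adjusted p = 0.0308) and Fads2 (0.66, adjusted p = 0.0404). Fasn, fatty acid synthase, had 81.9 ± 11.9 and 94.2 ± 2.1 FPKM, and the desaturase Scd2 344 ± 11.7 and 402 ± 21.6 FPKM (adjusted p = 0.0711 by limma). Among 9 genes of the isoprenoid side branches the median log2 change was -0.19. Coq2 of ubiquinone synthesis rose by 0.39 (adjusted p = 0.0236 by limma). In 4 of 9 all old samples lay below all young samples, against 16.1% of all genes, and in 2 of 9 above them, against 17.6%.

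Over these 6 lists, 10 of 60 genes rose and 0 of 60 fell. Among all 19465 genes tested 5.65% rose and 3.81% fell, the shares to set beside each list count. With sample weights, 11 genes of these lists rose and 1 fell. Srebf1 passed in all 16 alternative settings, Apoe in 15 and Scd1 in 14, whereas Npc2 passed in 12, Coq2 and Fads1 in 9, Cyp27a1 and Fads2 in 8 and Lrp1 in 6. On leaving out single samples, the count of 10 became 6 for young replicate 1, 3 for young replicate 2, 4 for old replicate 1, 1 for old replicate 2 and 3 for old replicate 3.

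**Figure D5:**
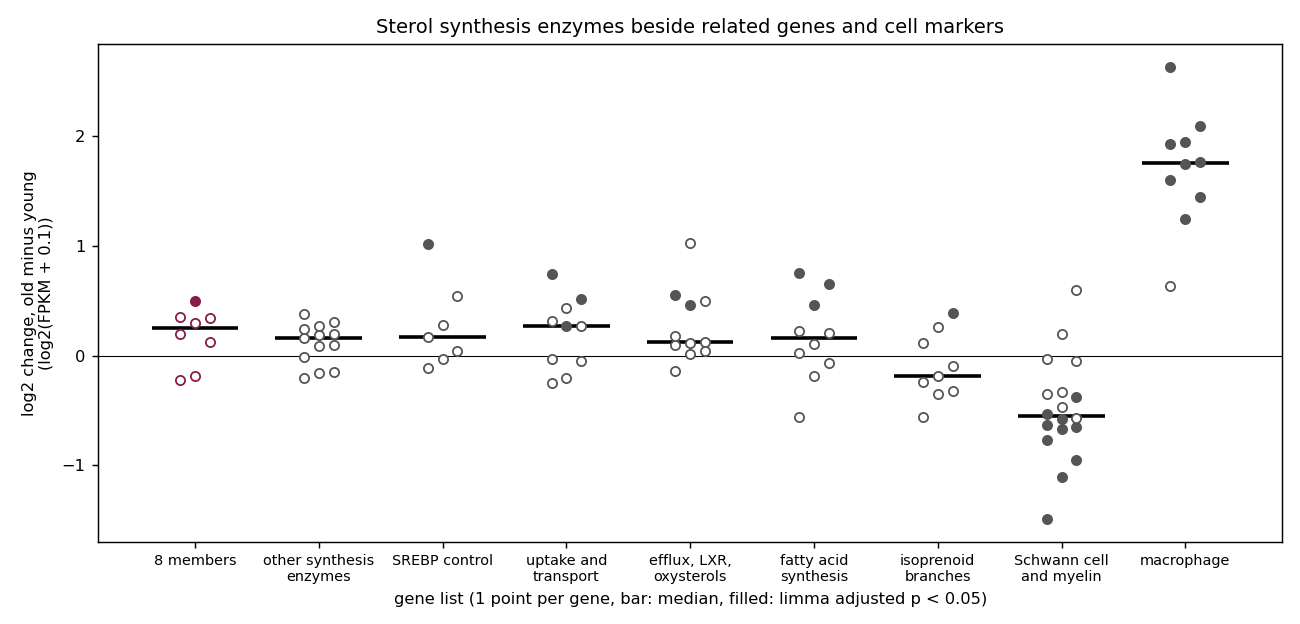
Log2 change from young to old cochlea (y axis) of every tested gene of 9 lists, with a bar at the list median and filled points for an adjusted p under 0.05 by limma. The members (median 0.25) lie near the other sterol and lipid lists, between the Schwann cell and myelin markers (median -0.55) and the macrophage markers (median 1.76).

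Cell type markers moved between the ages beside these genes. Of 18 Schwann cell and myelin markers, 10 fell and 0 rose, with a median log2 change of -0.55, and their summed level was 1151 to 1680 FPKM in young and 996 to 1031 FPKM in old samples. The log2 change was above 0 for 2 of 18, Egr2 (0.60) and Erbb3 (0.20). It was near 0 for Sox10 (-0.03) and Mal (-0.05). None of these passed the threshold, and they are named after their values were seen. Pmp22, a myelin membrane protein, had 269, 242 and 187 FPKM in the young and 151, 159 and 169 FPKM in the old replicates. Young replicate 3 was the lowest of the young group and still above all old samples, and Pmp22 fell by 0.53 (adjusted p = 0.0469 by limma). This call held in 7 of 16 alternative settings, with an adjusted p of up to 0.136, and was lost on leaving out any sample except young replicate 3. Mbp, myelin basic protein, had 246 ± 65.6 FPKM in young and 192 ± 13.9 FPKM in old cochlea, with a log2 change of -0.33 (adjusted p = 0.284 by limma). Of 10 macrophage markers, 9 rose and 0 fell, and their summed level was 128 to 198 FPKM in young and 696 to 778 FPKM in old samples. Lyz2 alone had 72.7 ± 13.1 FPKM in young and 450 ± 56.3 FPKM in old cochlea. On leaving out single samples, the count of 10 Schwann cell and myelin markers became 2 for young replicate 1 or 2, 13 for young replicate 3 and 1 for each of the old replicates, and it was 1 without the variance trend. The count of 9 macrophage markers was 7 or 8 in these cases except for 1 without old replicate 2, and it was 5 without the variance trend. The part of either change in the levels of the 8 enzymes was not tested.

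Other cell types were measured in the same way. Of 8 neuron markers 6 fell, of 10 hair cell markers 4, of 10 bone markers 2 and of 8 supporting cell markers 1, and none of these lists had a gene that rose. With single samples left out, these counts ranged from 0 to 6 for neurons (6 only without young replicate 3), 0 to 3 for hair cells, 0 to 6 for bone (6 without young replicate 2) and 0 to 1 for supporting cells, with 0 in all 4 lists without old replicate 2. The summed levels of these markers in young and old samples were 539 to 1047 and 353 to 387 FPKM for neurons, 145 to 251 and 90.1 to 117 FPKM for hair cells, 87.6 to 348 and 65.3 to 86.8 FPKM for bone, and 998 to 1108 and 1093 to 1227 FPKM for supporting cells. Such sums mostly follow the most abundant genes. Ocm of the hair cell list had means of 135 and 58.4 FPKM in young and old cochlea. Gjb2 (361 and 431 FPKM) and Gjb6 (643 and 669 FPKM) made up most of the supporting cell sum. The median log2 change of that list was -0.10, with 4 of 8 genes lower in old samples. Erythrocyte, proliferation, central glia and adipocyte markers had no gene past the threshold. Erythrocyte markers summed to 1435 to 2955 FPKM in young and 1369 to 2254 FPKM in old samples, and the other 3 lists to at most 18.4 FPKM. Lep was at 0 in all samples and the central myelin gene Opalin in all but young replicate 1 (0.146 FPKM). Hair cell and supporting cell markers, which define the sensory part of the labelled tissue, were thus detected in all 6 samples.

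The genes whose profile over the 6 samples lay closest to the mean profile of the members were found by the root mean square distance of centred log2 values among 14977 genes with a mean of at least 1 FPKM. The 10 nearest were Psmb6, Adcy5, Tnrc6a, Psma6, Ptgr2, Cfl1, Tsta3, Timm50, Msrb1 and Myh9, with distances from 0.02 to 0.03. None of the 10 belongs to the lists above or passed the threshold. The members themselves lay at 0.09 (Sqle) to 0.25 (Lss) from their own mean profile. Of the pathway lists Mvk was nearest, at rank 47, followed by Ebp at rank 163.

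The depth was estimated at 12470000 to 15660000 fragments per sample from the steps between low FPKM values. The correlation of log2 values across genes was 0.951 to 0.963 within ages and 0.928 to 0.948 between ages, and no sample stood apart from its group.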

How the data were processed

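The authors sequenced directional libraries with 150 bp paired-end reads, aligned them to GRCm38, assembled transcripts and deposited FPKM per transcript and sample. The submitters' processing notes name CASAVA 1.8, TopHat2 2.0.9, Cufflinks 2.1.1 and Cuffdiff 2.1.1, and the annotation release, the scaling between libraries and the use of strand are not given in the sources used here. Samples were grouped by the age in their labels, which give 1 month for the group that the methods call 4 weeks old.

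Of 55679 Ensembl transcripts, 55275 were matched to GENCODE M21 and summed per gene, and 404 unmatched ones were left out. Another 992 transcripts without an Ensembl ID were kept, each as a gene of its own. They count among the 25419 genes and, where they passed the filter, among the genes tested. Cuffdiff needs reads, so limma 3.58.1 in R 4.3.3 (lmFit, eBayes with trend) was fitted to log2(FPKM + 0.1) of 19465 genes with a mean of at least 0.1 FPKM, with age as the only term. Fold changes on this scale understate those of low genes. P-values are two-sided and Benjamini-Hochberg adjusted over all genes tested, with a threshold of 0.05, and single members were compared by an exact permutation test. Alternatives were the pseudocount, filter, scaling, variance model, sample weights, replicate block, each sample left out, and the most abundant transcript per gene. Tables and plots used Python 3.11.15, pandas 2.3.3, scipy 1.17.1 and matplotlib 3.10.9, and the code was tested on simulated data.

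The members and gene lists were chosen with earlier results of these data known. Named are the 8 members, list genes past the threshold, fixed pathway genes (Mvd, Msmo1, Srebf2, Scap, Insig1, Abca1, Apoe, Fasn and Scd2), the 10 nearest genes, and Pmp22, Mbp and markers at 0. Some genes that fall under these rules are counted in their lists and not reported here. Depth is an estimate, since FPKM were deposited without counts.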

Additional observations from a re-analysis of the deposited data

How the results depend on the processing

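Of the 8 members, 1 passed the threshold as reported, and 2 passed with a minimum mean of 1 FPKM (Sqle in addition), 3 with sample weights (Fdps and Sqle in addition), and 0 without the variance trend. For all genes, 1840 passed as reported, 1152 without a filter and 410 without the variance trend. Of the pathway list genes 10 passed as reported and 2 without the variance trend. With each sample left out in turn, the members past the threshold ranged from 0 to 1, their median log2 change from 0.20 to 0.35, all genes past the threshold from 62 (without old replicate 2) to 1771 (without young replicate 3), and pathway list genes from 1 to 10. The log2 change of Dhcr7 was 0.0894 with its most abundant transcript and -0.19 as the sum, and the cause is the choice of transcripts. No other member changed sign in any of the 16 settings, and no member transcript passed in any of them that was run on transcripts. Of the 10 nearest genes, 9 stayed among the 10 with a minimum of 5 FPKM and 8 with a pseudocount of 1 FPKM.

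Replicate numbers were shared between ages in the labels, but same-numbered samples did not deviate together (correlations of 0.02, -0.04 and 0.01 across genes). With a replicate block, 0 members (Fdft1 with an adjusted p of 0.0517 by limma), 730 genes and 6 pathway list genes passed. With 3 pools per age, a member that missed the threshold is not shown to be at the same level in both. Dhcr7 had the fewest fragments, an estimated 64.8 to 148 per sample, against 446 or more for each other member, and these cover counting error only.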
